A study of Homo sapiens with 18 samples.

Results

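CEMIP, HAS2, HAS3, HYAL2, HYAL3 and CD44 are 6 genes that make, cut or bind hyaluronan. They were taken by symbol from 2 expression tables that together list 16715 genes, 15358 in MCF10A and 15257 in hTERT RPE-1, and all 6 were listed and passed the filter on low values in both cell lines. The set was chosen by measured values of CEMIP, which was the gene lowered most in RPE-1 and whose level differed there between the microRNA mimics, so the RPE-1 values of CEMIP are given below as a description with no test.

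Hyaluronan is a long, unbranched sugar polymer of the extracellular matrix that HAS enzymes assemble at the plasma membrane from UDP-sugars and extrude from the cell. CEMIP, also called HYBID or KIAA1199, drives the depolymerization of hyaluronan, and HYAL2 is a hyaluronidase attached to the cell surface. HYAL3 is a further member of the hyaluronidase family, and CD44 is the main cell surface receptor for hyaluronan, through which cells attach to the polymer and take it up.

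The study looked for microRNA mimics that repress ribosome biogenesis, and sequenced RNA to follow up hits from the MIR-28 family. MCF10A, a near-normal human breast epithelial line, and hTERT RPE-1, a human retinal pigment epithelial line immortalized with telomerase, were each transfected for 72 h with 30 nM of a mimic of hsa-miR-28-5p (miR-28 below), a mimic of hsa-miR-708-5p (miR-708) or siNT, a non-targeting siRNA that served as the negative control. PolyA+ RNA was sequenced from 3 biological replicates of each of the 6 groups, numbered 7, 8 and 9 in MCF10A and 1, 2 and 3 in RPE-1, giving 18 libraries. Each line stands for 1 genotype, the mimics raise the microRNAs from outside the cell, and both mimics of a line were compared with the same siNT libraries.

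Values are estimated read counts that the authors divided by a size factor of the library, called scaled read counts here. The 2 tables were scaled separately, so levels of the lines are placed side by side and only differences within a line were compared between lines. Depth was 19.4 to 31.7 M reads on genes in MCF10A and 23.8 to 40.4 M in RPE-1, and 3 reads corresponded to a scaled count of 2.49 to 4.02 and 2.35 to 4.40, respectively. This floor covers counting error only. The share of values on ribosomal RNA genes was 1.71% to 4.39% in MCF10A and 4.23% to 15.1% in RPE-1, where the miR-28 library of replicate 1 was the highest. All 9 breast epithelial markers passed the filter in MCF10A, while of 9 retinal pigment epithelial markers 5 passed in RPE-1, with RPE65 and TTR not listed and TYRP1 and LRAT below the filter. In MCF10A 5 of these 9 passed as well, with RLBP1, TYRP1, OTX2 and TTR not listed. The number of retinal pigment epithelial markers that passed therefore does not tell the lines apart. Differences are on the log2(value + 1) scale, which understates changes of low genes, and a gene was called at a Benjamini-Hochberg adjusted p below 0.05 in limma over all 14726 genes tested in MCF10A or 14527 in RPE-1. Scaling by library size instead moved the median log2 difference of all genes to 0.12 and 0.14 with miR-28 and miR-708 in MCF10A, and to 0.09 and 0.32 in RPE-1. The share of called genes that were higher than siNT then went from 47.1% to 66.1%, from 47.3% to 67.6%, from 49.9% to 59.4% and from 49.7% to 71.8% in these comparisons. Upper quartile scaling gave 59.2% in the first of them. Between the mimics in RPE-1 the share went from 46.5% to 84.8% with library size scaling, and for the miR-708 difference between lines from 50.8% to 68.4%.

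The mimics share 1 seed, the stretch of bases 2 to 8 of the microRNA that pairs with target transcripts. The mature hsa-miR-708-5p sequence (RefSeq, GRCh38.p14, chr11:79402077-79402099, minus strand) is shown because its seed, in capitals, is the one searched for in the members. Below it are the 4 places in their annotated 3′ UTRs that hold a 7-base motif of the search described below. Each is shown within 30 bases of the transcript strand with the motif in capitals. Positions are those of the first base of GCTCCT, counted from 1 after the stop codon.
hsa-miR-708-5p: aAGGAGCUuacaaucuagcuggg
CEMIP, UTR position 1157: ccacagaagtgAGCTCCTgccttagggcct
CEMIP, UTR position 1835: agagcccaaagAGCTCCTgtaagagggaga
CD44, UTR position 1536: ctcctttctgagGCTCCTActaaaagtcat
CD44, UTR position 1622: agaagaagaaaAGCTCCTgactaaatcagg

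These windows lie in hg38 at chr15:80950069-80950098 and chr15:80950747-80950776 in exon 30 of CEMIP, and at chr11:35230857-35230886 and chr11:35230943-35230972 in exon 18 of CD44, all on the plus strand. CEMIP spans chr15:80779370-80951771 and CD44 spans chr11:35139171-35232402 in the GENCODE 44 MANE Select transcripts. The search on the transcript strand was for GCTCCT, which pairs with bases 2 to 7 of the microRNA (6mer), for AGCTCCT, which pairs with the whole seed (7mer-m8), and for GCTCCTA (7mer-A1) and AGCTCCTA (8mer), all of which contain the first. The last A of the 7mer-A1 and 8mer lies outside the seed, so a 7mer-A1 pairs with no more of the seed than a 6mer does. The 2847 nt 3′ UTR of CEMIP held 3 such matches, both 7mer-m8 sites above and a 6mer at position 2541. The 3069 nt 3′ UTR of CD44 held 4, a 7mer-A1 at position 1536, a 7mer-m8 at position 1622 and 6mers at positions 1506 and 1717. The 3′ UTRs of HAS2 (1993 nt), HAS3 (2394 nt), HYAL2 (321 nt) and HYAL3 (414 nt) held no GCTCCT, and neither did their coding sequences, whereas those of CEMIP and CD44 held 1 each. The coding match of CEMIP was of a 7mer or 8mer type and that of CD44 was a 6mer. No background share was computed for coding sequences. Among 18780 annotated 3′ UTRs, 33% held GCTCCT and 17.2% held a 7mer-m8, 7mer-A1 or 8mer. Among the 3727 that are 2000 to 4000 nt long, these shares were 51.1% and 27.6%. A match describes the letters of the transcript and is not a measured binding site.

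**Figure D1:**
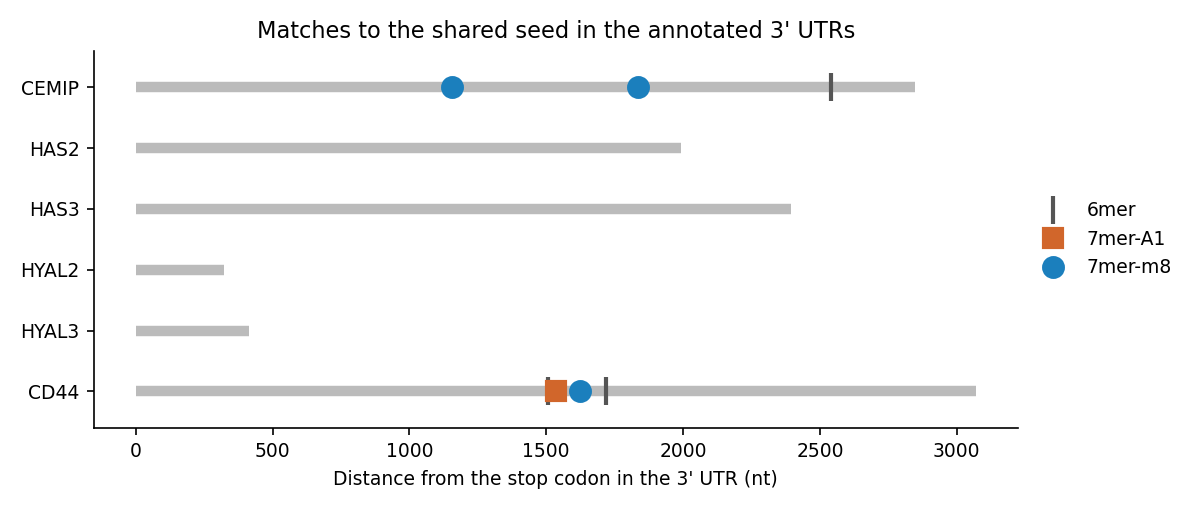
The 3′ UTR of each gene (grey bar, distance from the stop codon in nt) with the matches to the shared seed by type. CEMIP holds 3 matches spread over its 3′ UTR, CD44 holds 4 between positions 1506 and 1717, and the other genes hold none.

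CEMIP was lower with both mimics in RPE-1 and lower with miR-708 than with miR-28. CEMIP mRNA was abundant in RPE-1 with siNT, with scaled counts of 56704.5, 60063 and 68399.6 in replicates 1, 2 and 3. With miR-28 the values were 3923, 1496 and 3825. With miR-708 they were 171, 176 and 146. No library of one group overlapped another group, and the miR-28 library of replicate 2 was the lowest of its group by a wide margin. The group means were 61722 ± 6022, 3081 ± 1374 and 164 ± 15.9 (SD, n = 3), so the level with miR-28 was 4.99% of the siNT mean, or 20.0-fold below it, and the level with miR-708 was 0.266%, or 375-fold below it. On the log2 scale the differences from siNT were -4.45 and -8.54, and the miR-708 libraries lay 4.10 below those with miR-28. Without the miR-28 library of replicate 2, the first difference was -3.99. Of 14527 genes tested, CEMIP had the lowest log2 difference with miR-708 and, after RPS28, the second lowest with miR-28, which restates how it was chosen. RPS28, the ribosomal protein gene that the study followed up, was at 4.55% and 4.76% of siNT with miR-28 and miR-708 in RPE-1.

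Per kilobase of transcript, CEMIP ranked 181st of 13000 RPE-1 genes with siNT, at 8394 scaled counts per kb. It ranked 4058th with miR-28, at 419 per kb, and 11066th with miR-708, at 22.4 per kb. The remaining level rested on 172 to 218 estimated reads in each miR-708 library, well above the floor of 3 reads. In a bulk library, fewer cells that express a gene and less RNA per cell cannot be told apart. Fibroblast markers were also lower in sum with the mimics in RPE-1. All 6 of them (COL1A1, COL1A2, COL3A1, PDGFRB, LUM and DCN) passed the filter, and their summed scaled count ranged from 35137 to 83379 with siNT, from 12893 to 24628 with miR-28 and from 4325 to 8729 with miR-708. Other marker lists differed between the groups as well. Retinal pigment epithelial markers (5 of 9 above the filter, with RPE65 and TTR not listed) summed to 2943 to 4291 with siNT, 1951 to 2071 with miR-28 and 2110 to 2268 with miR-708. Endothelial markers (1 of 4 above the filter, KDR, with PECAM1 and CDH5 not listed) summed to 224 to 351, 564 to 684 and 869.6 to 1248, respectively. Breast epithelial markers, of which 2 of 9 passed the filter, were higher in sum with the mimics. They ranged from 88.0 to 110.5 with siNT, from 216 to 390 with miR-28 and from 364 to 453 with miR-708. Of 5 leukocyte markers only PTPRC was listed, below the filter, with values of 3.14 to 11.4 over all libraries. The part of these cell type markers in the CEMIP values and in the other RPE-1 results was not tested.

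In MCF10A, CEMIP was a low transcript and its group means stood in the same order. The scaled counts in replicates 7, 8 and 9 were 145, 93.2 and 91.3 with siNT, 61.7, 40.6 and 52.2 with miR-28, and 32.5, 15.4 and 11.5 with miR-708. The groups did not overlap, although the miR-708 values rested on only 12 to 39 estimated reads. The means of 110.0 ± 30.7, 51.5 ± 10.5 and 19.8 ± 11.2 (SD, n = 3) put the mimics at 46.8% and 17.98% of siNT. The fall with miR-708 was called, with a log2 difference of -2.51 (SE 0.38) and an adjusted p of 0.000662 in limma. The difference with miR-28, -1.07 (SE 0.38), missed the threshold at an adjusted p of 0.0640 and passed it with the replicate number as a block, at an adjusted p of 0.0185. The replicate numbers pair the MCF10A libraries with siNT, as described in the processing. The miR-708 values lay 1.45 below those with miR-28 on the log2 scale (95% confidence interval of the difference -2.28 to -0.62), which missed the threshold over all genes at an adjusted p of 0.102. Of 6 leave-one-out fits, that comparison passed only without the miR-708 library of replicate 7, the highest of its group (log2 difference -1.86, adjusted p 0.0163 in limma). The adjusted p was up to 0.321 over the libraries left out. CEMIP was chosen partly for a difference between the mimics, so this pass is not read as support. CEMIP ranked 11263rd of 13156 MCF10A genes per kilobase with siNT, at 14.96 scaled counts per kb. The fibroblast markers were higher in sum with the mimics in MCF10A, where COL1A2, COL3A1 and LUM were not listed and 2 of 6 passed the filter, with sums of 1496 to 3312 with siNT, 3325 to 10208 with miR-28 and 5475 to 14269 with miR-708.

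CEMIP overlaps MESD in the RefSeq annotation, and whether the authors counted by strand is not given in the sources used here. MESD was at 1595 to 2247 in MCF10A and 2767 to 3408 in RPE-1 over all libraries, and none of its differences was called. Between lines, the CEMIP difference from siNT (RPE-1 minus MCF10A, log2 scale) was -3.38 with miR-28 and -6.03 with miR-708, values that chose the gene and were not tested.

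**Figure D2:**
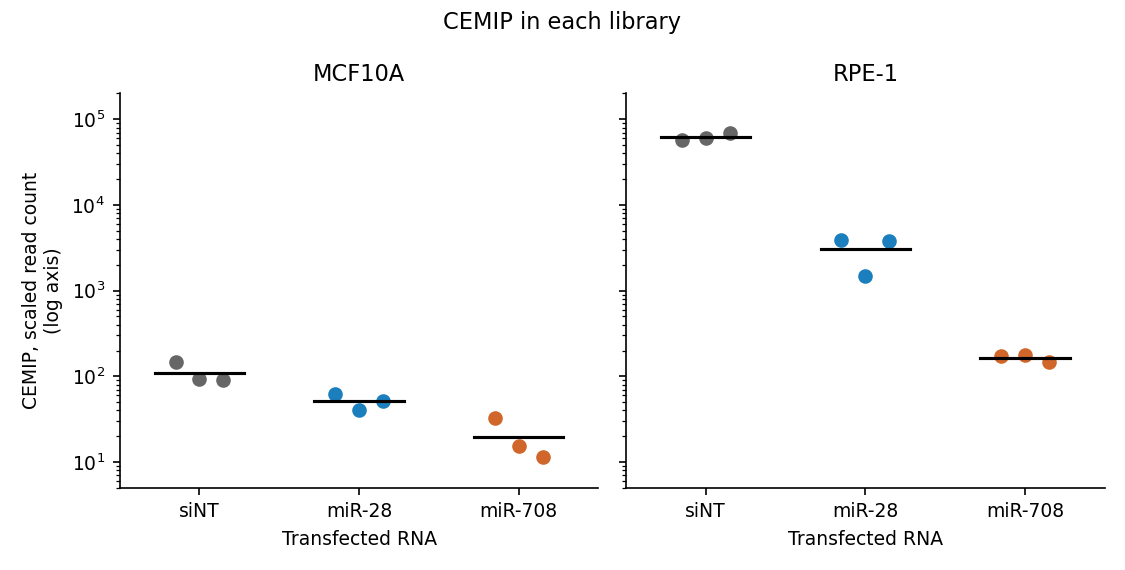
Scaled read count of CEMIP (log axis) in each library of MCF10A and RPE-1 by transfected RNA; points are replicates and bars are group means. The order siNT, miR-28, miR-708 is the same in both lines, and the RPE-1 libraries run from 68399.6 down to 146.

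Among the members tested in MCF10A, 2 of 6 were called with miR-28, where 22.7% of all genes were called, and 3 of 6 with miR-708, where 32.8% were. Between the mimics in MCF10A, limma called 0 of 6, with 1.55% of all genes called, and 2 of 6 had an unadjusted p below 0.05 (CEMIP and HYAL3), as did 15.8% of all genes. In RPE-1, with CEMIP left out of the test, 3 of 5 were called with miR-28 against 46.8% of all genes, and 4 of 5 with miR-708 against 62.1%. Between the mimics in RPE-1, 1 of 5 was called, CD44, against 21.2% of all genes. With so many genes called, these shares describe the list and set it apart from other genes in no comparison. The median log2 difference over the 6 members was 0.05 and 0.15 with miR-28 and miR-708 in MCF10A and -0.18 and -0.04 in RPE-1, each near the median of all genes, since some members rose while others fell.

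The synthases HAS2 and HAS3 were both higher with the mimics in RPE-1, where CEMIP was lower. HAS2, the synthase that makes most hyaluronan in many mesenchymal cells, had scaled counts of 86.2, 132 and 103 with siNT in RPE-1. It had 426, 694 and 613 with miR-28 and 857, 1038 and 659 with miR-708. Every library with a mimic was above every siNT library, while the groups of the mimics overlapped. From a siNT mean of 107 ± 23.2, the means of 578 ± 137 and 852 ± 189.7 (SD, n = 3) were 5.40-fold and 7.96-fold as high. The log2 differences were 2.41 (SE 0.22, adjusted p 1.93e-05) and 2.98 (SE 0.22, adjusted p 1.99e-06) in limma, and both kept their call in every alternative tried. HAS2 lay 0.56 higher on the log2 scale with miR-708 than with miR-28, which missed the threshold at an adjusted p of 0.10 and passed it with the replicate number as a block (adjusted p 0.0352) or without the miR-28 library of replicate 2 (log2 difference 0.36 to 0.74 over the libraries left out, lowest adjusted p 0.0453). Replicate numbers pair the mimic libraries of RPE-1. Per kilobase, HAS2 went from rank 10853 of 13000 with siNT (25.2 scaled counts per kb) to rank 7917 with miR-28 (136 per kb) and rank 6761 with miR-708 (201 per kb). The antisense transcript HAS2-AS1 ranged from 6.995 to 33.7 over the RPE-1 libraries, with no difference called. Its siNT mean was 11.3, against 107 for HAS2, and its part in the HAS2 values was not tested.

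HAS2 in MCF10A was near the limit of detection, with 6 to 23 estimated reads per library. Its scaled counts were 7.18, 13.9 and 21.0 with siNT, 20.1, 13.3 and 16.8 with miR-28 and 10.8, 14.4 and 20.0 with miR-708. The groups overlapped, and the log2 differences of 0.33 (95% confidence interval -0.69 to 1.35) and 0.17 (-0.85 to 1.19) left room for changes in either direction at this depth. The HAS2 response was 2.08 larger on the log2 scale in RPE-1 with miR-28 (SE 0.52, adjusted p 0.00875) and 2.81 larger with miR-708 (SE 0.52, adjusted p 0.000435), tested as the difference of the limma estimates of the lines over 13339 genes. In these tests 2 of 5 members were called with miR-28 against 23.4% of all genes, and 4 of 5 with miR-708 against 39.8%.

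HAS3, another of the hyaluronan synthases, was higher with both mimics in both lines. In RPE-1 its scaled counts were 136, 80.1 and 86.6 with siNT, 405, 201 and 369 with miR-28, and 306, 222 and 300.4 with miR-708. All mimic libraries were above all siNT libraries, and the miR-28 library of replicate 2 was again the lowest of its group. The means of 101 ± 30.8, 325 ± 109 and 276 ± 47.0 (SD, n = 3) gave 3.22-fold and 2.73-fold the siNT level. The log2 differences were 1.65 (SE 0.28, adjusted p 0.000891) and 1.47 (SE 0.28, adjusted p 0.00105), and the mimics did not differ beyond their spread, with a log2 difference of -0.19 between them (95% confidence interval -0.81 to 0.44).

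In MCF10A, HAS3 had scaled counts of 182, 267 and 131 with siNT, 349.9, 296 and 317 with miR-28, and 382, 371 and 439 with miR-708. Again no library with a mimic fell within the range of siNT, where replicate 8 was the highest. The means of 193 ± 68.4, 321 ± 27.1 and 397 ± 36.5 (SD, n = 3) gave 1.66-fold and 2.05-fold the siNT level. The rise with miR-708 was 1.09 (SE 0.22, adjusted p 0.00330) on the log2 scale. The rise with miR-28, 0.78 (SE 0.22, adjusted p 0.0258), lost its call when siNT replicate 7 or 9 or any 1 of the miR-28 libraries was left out, with differences of 0.54 to 1.05 and an adjusted p of at most 0.0879 over the libraries left out. The HAS3 response did not differ between lines with miR-708 (0.38 higher in RPE-1, 95% confidence interval -0.37 to 1.121) and missed the threshold with miR-28 (0.87 higher, 95% confidence interval 0.12 to 1.61, adjusted p 0.0832). That last difference passed without siNT replicate 9 of MCF10A, siNT replicate 1 of RPE-1 or miR-28 replicate 2 of RPE-1, with a range of 0.61 to 1.18 and a lowest adjusted p of 0.0126.

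HAS3 lies at chr16:69105653-69117660 and overlaps TANGO6, DERPC and CHTF8 in the RefSeq annotation. In RPE-1, TANGO6 went down with both mimics (log2 differences -0.77 and -0.74) and so did CHTF8 (-1.19 and -1.74), all 4 called in limma, so these neighbours moved opposite to HAS3. In MCF10A, TANGO6 was lower with miR-708 (-0.50, adjusted p 0.0318 in limma) and not called with miR-28, and CHTF8 had no difference called. Reads shared by overlapping genes could have been split between them, and the part of these neighbours in the HAS3 values was not tested. DERPC had no difference called. The third synthase, HAS1, passed the filter in both lines with no difference called.

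Of the hyaluronidases, HYAL2 and HYAL3 had called differences from siNT in RPE-1 and none in MCF10A. HYAL2, encoded at chr3:50317808-50322745, had scaled counts of 281, 316 and 264 with siNT in MCF10A, 329.8, 285 and 308 with miR-28 and 306, 303 and 331.3 with miR-708. The groups overlapped, with means of 287 ± 26.6, 308 ± 22.3 and 313 ± 15.5 (SD, n = 3). The log2 differences of 0.10 (95% confidence interval -0.19 to 0.39) and 0.13 (-0.16 to 0.42) exclude neither small rises nor small falls. In RPE-1 the values were 738, 802 and 657 with siNT, 714, 507 and 702 with miR-28 and 557, 609.7 and 479 with miR-708. Only the miR-708 libraries all lay below the siNT libraries. The means were 732 ± 72.3, 641 ± 117 and 549 ± 65.7, and the log2 difference with miR-28 was -0.20 (95% confidence interval -0.54 to 0.13). The difference with miR-708, -0.42 (SE 0.15, adjusted p 0.0316), was called, but the call was lost when siNT replicate 1 or 2 or miR-708 replicate 1 or 3 was left out (-0.50 to -0.32, adjusted p at most 0.120), and under library size scaling the difference was -0.10 (adjusted p 0.571). HYAL2 responded 0.55 lower in RPE-1 than in MCF10A with miR-708 (SE 0.20, adjusted p 0.0344). That call was lost in 7 of 12 leave-one-out fits, those without siNT replicate 7 or 9 or miR-708 replicate 9 of MCF10A, or without siNT replicate 1 or 2 or miR-708 replicate 1 or 3 of RPE-1 (-0.63 to -0.45, adjusted p at most 0.103).

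HYAL3, at chr3:50292832-50299405, differed in direction between the lines with miR-708. Its scaled counts in RPE-1 were 76.8, 90.5 and 60.2 with siNT, 49.2, 41.0 and 45.4 with miR-28 and 53.9, 61.7 and 43.96 with miR-708. The miR-28 libraries were all below siNT, whereas the miR-708 library of replicate 2 lay within the siNT range. From a siNT mean of 75.8 ± 15.2, the means were 45.2 ± 4.10 and 53.2 ± 8.87 (SD, n = 3). The log2 difference with miR-28 was -0.72 (SE 0.22, adjusted p 0.0213), and its call was lost without siNT replicate 1 or 2 or miR-28 replicate 2 (-0.87 to -0.58, adjusted p at most 0.0876). With miR-708 the difference was -0.50 (adjusted p 0.0713), and it passed without siNT replicate 3 (-0.65, adjusted p 0.0301).

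HYAL3 values in MCF10A were 76.2, 77.8 and 54.6 with siNT, 64.4, 71.3 and 70.6 with miR-28 and 105, 95.1 and 113 with miR-708. Only the miR-708 libraries stood above the others. Their mean of 104 ± 9.10 against 69.5 ± 12.9 with siNT (SD, n = 3) gave a log2 difference of 0.59 (SE 0.22), which missed the threshold at an adjusted p of 0.0578, and with miR-28 the difference was 0.00 (95% confidence interval -0.48 to 0.48). Under library size and upper quartile scaling the miR-708 difference was called, at 0.74 and 0.64. The response to miR-708 was 1.09 lower in RPE-1 than in MCF10A on the log2 scale (SE 0.31, adjusted p 0.00801), and with miR-28 it was 0.72 lower (adjusted p 0.0982), which passed without siNT replicate 3 of RPE-1 (-0.87, adjusted p 0.0459). HYAL3 overlaps NAA80, whose scaled counts were as low, 19.4 to 84.5 in MCF10A and 19.0 to 87.9 in RPE-1, so reads shared by both genes could have been split between them. NAA80 fell in RPE-1 with both mimics (-1.09 and -1.69, called) and had a difference of -0.83 (adjusted p 0.120) with miR-708 in MCF10A. Its part in the HYAL3 values was not tested.

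The receptor CD44 fell with both mimics in MCF10A and did not fall beyond the spread in RPE-1. In MCF10A its scaled counts were 25002, 23451 and 27899 with siNT, 13463, 11740.2 and 11928 with miR-28, and 12406, 9118 and 9502 with miR-708. All siNT libraries were far above all mimic libraries, and the groups of the mimics overlapped. The means of 25451 ± 2258, 12377 ± 945 and 10342 ± 1798 (SD, n = 3) put the mimics at 48.6% and 40.6% of siNT. The log2 differences were -1.04 (SE 0.13, adjusted p 0.000626) and -1.31 (SE 0.13, adjusted p 7.20e-05), called in every alternative, and the mimics differed by -0.27 (95% confidence interval -0.56 to 0.02). The breast epithelial markers were lower in sum with the mimics in MCF10A too. All 9 passed the filter, and their sum was 225585 to 245460 with siNT, 155462 to 167987 with miR-28 and 129073 to 161454 with miR-708, with no overlap between siNT and either mimic. The retinal pigment epithelial (2206 to 2227, 2064 to 2759 and 2138 to 2234) and endothelial sums (403 to 599.7, 421 to 734 and 356 to 507) overlapped between siNT and the mimics. Leukocyte markers, of which 1 of 5 passed the filter, summed to 248 to 491 with siNT, 190.2 to 221 with miR-28 and 279 to 325 with miR-708. The part of these markers in the MCF10A results was not tested.

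In RPE-1, CD44 had scaled counts of 20919, 18794 and 22305 with siNT, 18419, 21104 and 16339.9 with miR-28, and 25813, 25586 and 26574 with miR-708. The siNT and miR-28 groups overlapped, while the miR-708 libraries were above all others. The means were 20673 ± 1769, 18621 ± 2388 and 25991 ± 518 (SD, n = 3), and miR-28 differed from siNT by -0.16 on the log2 scale (95% confidence interval -0.41 to 0.10). With miR-708, CD44 was 0.33 higher (SE 0.11, adjusted p 0.0261), a call that was lost when siNT replicate 1 or 2 or miR-708 replicate 1 or 3 was left out (0.27 to 0.39, adjusted p at most 0.105). CD44 was also higher with miR-708 than with miR-28, by 0.49 (SE 0.11, adjusted p 0.0138), a call that was lost without replicate 3 of either mimic (0.40 to 0.58, adjusted p at most 0.0611). The CD44 response lay 0.88 higher in RPE-1 than in MCF10A with miR-28 (SE 0.18, adjusted p 0.00130) and 1.64 higher with miR-708 (SE 0.18, adjusted p 5.59e-07), and both differences were called in every alternative. Per kilobase, CD44 ranked 320th of 13156 genes with siNT in MCF10A and 630th and 843rd with miR-28 and miR-708, and in RPE-1 it ranked 403rd, 382nd and 227th of 13000. The tables hold 1 value per gene, so which isoforms or 3′ UTRs either line expressed was not measured here.

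**Figure D3:**
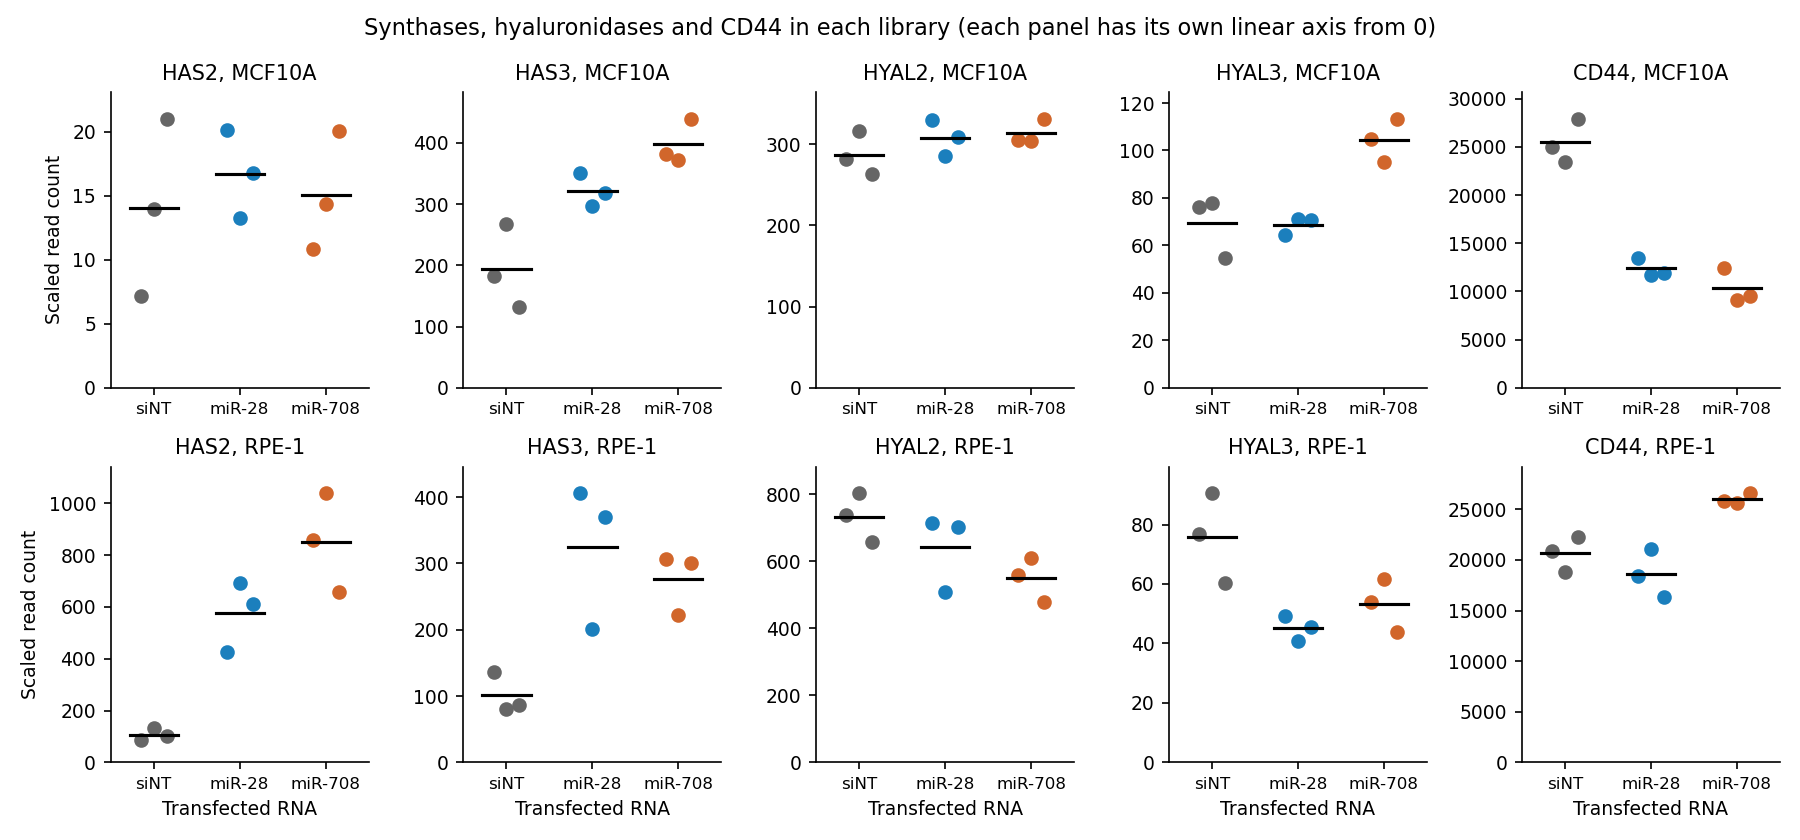
Scaled read counts of HAS2, HAS3, HYAL2, HYAL3 and CD44 in each library of MCF10A (top) and RPE-1 (bottom) by transfected RNA; points are replicates, bars are group means, and each panel has its own linear axis from 0. Mean HAS2 rises from 107 to 578 and 852 in RPE-1, and mean CD44 falls from 25451 to 12377 and 10342 in MCF10A.

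**Figure D4:**
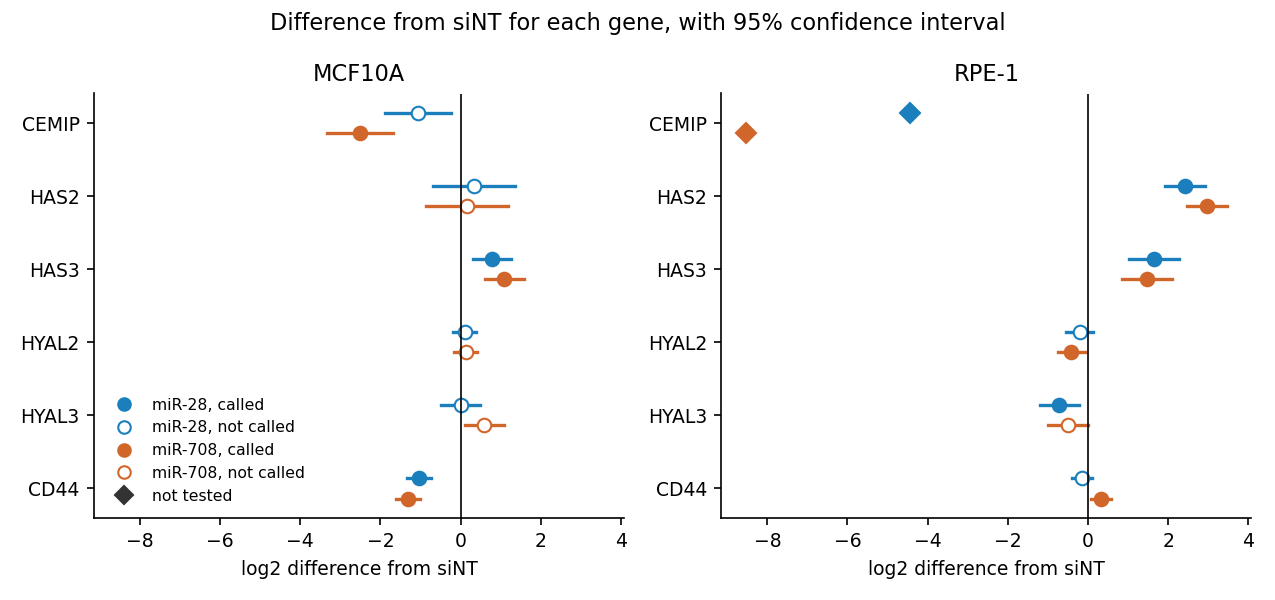
The log2 difference from siNT of each gene with miR-28 and miR-708 in MCF10A and RPE-1; lines are 95% confidence intervals, filled circles were called, open circles were not, and diamonds (CEMIP in RPE-1, at -4.45 and -8.54) were not tested. HAS3 lies to the right of 0 in both lines, and the intervals of CD44 lie to the left of 0 in MCF10A.

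Other genes of hyaluronan metabolism were taken from lists by role that hold 49 symbols, of which TMEM2 is an older symbol of CEMIP2. In MCF10A 32 were listed and 31 tested, with 4 higher and 4 lower with miR-28 and 8 higher and 2 lower with miR-708. In RPE-1 33 were listed and tested, with 8 higher and 8 lower with miR-28 and 9 higher and 9 lower with miR-708. Of all genes tested, 22.7% and 32.8% were called with miR-28 and miR-708 in MCF10A, and 46.8% and 62.1% in RPE-1, so the share called in these lists was near that of all genes. The counts given below for each role stand against the same shares and set no role apart. The medians of the log2 differences over the lists were -0.01 and 0.03 in MCF10A and 0.02 and -0.02 in RPE-1, close to those of all genes. SPAM1, the sperm hyaluronidase, and the endothelial hyaluronan receptors LYVE1, STAB1 and STAB2 were listed in neither table.

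Of 10 genes listed for the supply of the UDP-sugars of hyaluronan or the turnover of their precursors, UGDH was lower with both mimics in both lines. UGDH makes UDP-glucuronic acid. In RPE-1 its means were 4217 ± 263 with siNT, 2328 ± 185 with miR-28 and 2295 ± 211.3 with miR-708 (SD, n = 3), with log2 differences of -0.86 (adjusted p 6.03e-05) and -0.88 (adjusted p 2.22e-05). In MCF10A its means were 796 ± 25.1, 567 ± 38.2 and 619.7 ± 41.1, and the differences were -0.49 (adjusted p 0.00782) and -0.36 (adjusted p 0.0214). The last of these lost its call without siNT replicate 8 or 9 or miR-708 replicate 9 (adjusted p at most 0.0739) and under library size scaling (-0.22, adjusted p 0.153). UGP2, which makes the UDP-glucose that UGDH oxidizes, was also lower in RPE-1, by -0.56 (adjusted p 0.000263) and -0.62 (adjusted p 5.62e-05). In MCF10A UGP2 went the other way with miR-708 (0.55, adjusted p 0.00460 in limma) and was not called with miR-28 (0.10, adjusted p 0.560). In RPE-1 UAP1, which makes UDP-N-acetylglucosamine, was higher (0.53 and 0.61, adjusted p 0.00983 and 0.00288). AMDHD2, an N-acetylglucosamine-6-phosphate deacetylase, was also higher there (1.21 and 1.75, adjusted p 0.00846 and 0.000586). AMDHD2 acts on a precursor and does not make a UDP-sugar, so its rise is not read here as more supply. In that list 2 genes rose and 3 fell with miR-28 and 2 rose and 2 fell with miR-708 in RPE-1, and in MCF10A 1 fell with miR-28, and 2 rose and 1 fell with miR-708.

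Among other genes of hyaluronan breakdown, CEMIP2, a cell surface hyaluronidase related to CEMIP in sequence, rose with both mimics in MCF10A. Its means there were 1159 ± 145 with siNT, 2281 ± 573 with miR-28 and 3881 ± 843 with miR-708 (SD, n = 3), with log2 differences of 0.95 (adjusted p 0.00685) and 1.73 (adjusted p 0.000136). The libraries ranged from 994 to 1267, from 1663 to 2795 and from 2983 to 4655, so the 3 groups did not overlap. In RPE-1 CEMIP2 was higher with miR-28 (0.39, adjusted p 0.0304 in limma) and not called with miR-708 (0.21, adjusted p 0.180). In this list 1 gene rose with miR-28 in MCF10A and 2 rose with miR-708, and in RPE-1 3 and 1 rose.

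Among other receptors, HMMR, which binds hyaluronan and is also part of the mitotic spindle, rose in MCF10A from 2601 ± 141 to 3743 ± 363 and 3736 ± 321 (log2 differences 0.52 and 0.52, adjusted p 0.00534 and 0.00303). In RPE-1 HMMR also rose with miR-708 (1.82, adjusted p 8.01e-05 in limma) and was not called with miR-28 (0.42, adjusted p 0.168). TLR4, an innate immune receptor reported to respond to hyaluronan fragments, rose in RPE-1 from 2854 ± 273 to 6671 ± 946 and 6770.1 ± 422 (1.22 and 1.25, adjusted p 1.79e-05 and 6.42e-06). In MCF10A TLR4 was low, with a mean of 57.6 over all libraries of the line. It rose there with miR-708 (1.39, adjusted p 0.00836 in limma) and was not called with miR-28 (0.82, adjusted p 0.0940). With miR-28 1 receptor rose in each line, and with miR-708 3 rose in each line, of 3 tested in MCF10A and 4 in RPE-1.

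In the matrix that binds hyaluronan, HAPLN3, a link protein, rose in MCF10A from 40.2 ± 15.4 to 151 ± 43.2 and 257.7 ± 116 (log2 differences 1.92 and 2.60, adjusted p 0.00738 and 0.000824). HAPLN3 also rose in RPE-1, at a low mean of 33.2 (1.32 and 1.44, adjusted p 0.0251 and 0.0123 in limma). PTX3, a pentraxin built into hyaluronan-rich matrix, was lower in RPE-1 by -0.76 and -0.67 (adjusted p 0.0257 and 0.0325). In MCF10A PTX3 was lower with miR-28 (-1.26, adjusted p 0.0460 in limma) and not called with miR-708 (-0.65, adjusted p 0.247). Both PTX3 calls in RPE-1 were fragile. That with miR-28 was lost without replicate 1 or 3 of siNT or of miR-28 (adjusted p at most 0.0867), and that with miR-708 without siNT replicate 1 or 3 or miR-708 replicate 1 or 2 (adjusted p at most 0.104) and under library size scaling (-0.36, adjusted p 0.240) or with no trend (adjusted p 0.0519). In this list 2 genes rose and 2 fell with miR-28 and 1 rose with miR-708 in MCF10A, and in RPE-1 1 rose and 2 fell, and 2 rose and 3 fell.

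The ERM proteins that tie CD44 to the actin cytoskeleton, EZR, RDX and MSN, all had lower mRNA in RPE-1. EZR was lower by -0.62 and -0.57 (adjusted p 0.00227 and 0.00235), MSN by -0.54 and -0.99 (adjusted p 0.00182 and 1.73e-05) and RDX by -0.24 and -0.48 (adjusted p 0.0412 and 0.000642). The RDX call with miR-28 was lost without siNT replicate 1 or 3 or any 1 of the miR-28 libraries (adjusted p at most 0.116), under upper quartile scaling (adjusted p 0.0550), with no trend (0.0642) and with only the 2 groups compared (0.0743). Under library size scaling EZR with miR-708 (-0.25) and RDX with both mimics (-0.15 and -0.16) were not called. MMP14, a membrane protease that sheds CD44, rose in RPE-1 from 30534 ± 298 to 42765 ± 5610.2 and 46801.5 ± 5694 (log2 differences 0.48 and 0.61, adjusted p 0.0132 and 0.00230). In MCF10A, 1 of the 7 linkers and sheddases fell with each mimic, and with miR-708 it was RDX (-0.31, adjusted p 0.0242 in limma). RDX was not called there with miR-28. In RPE-1 1 rose and 3 fell with miR-28, and 1 rose and 4 fell with miR-708.

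**Figure D5:**
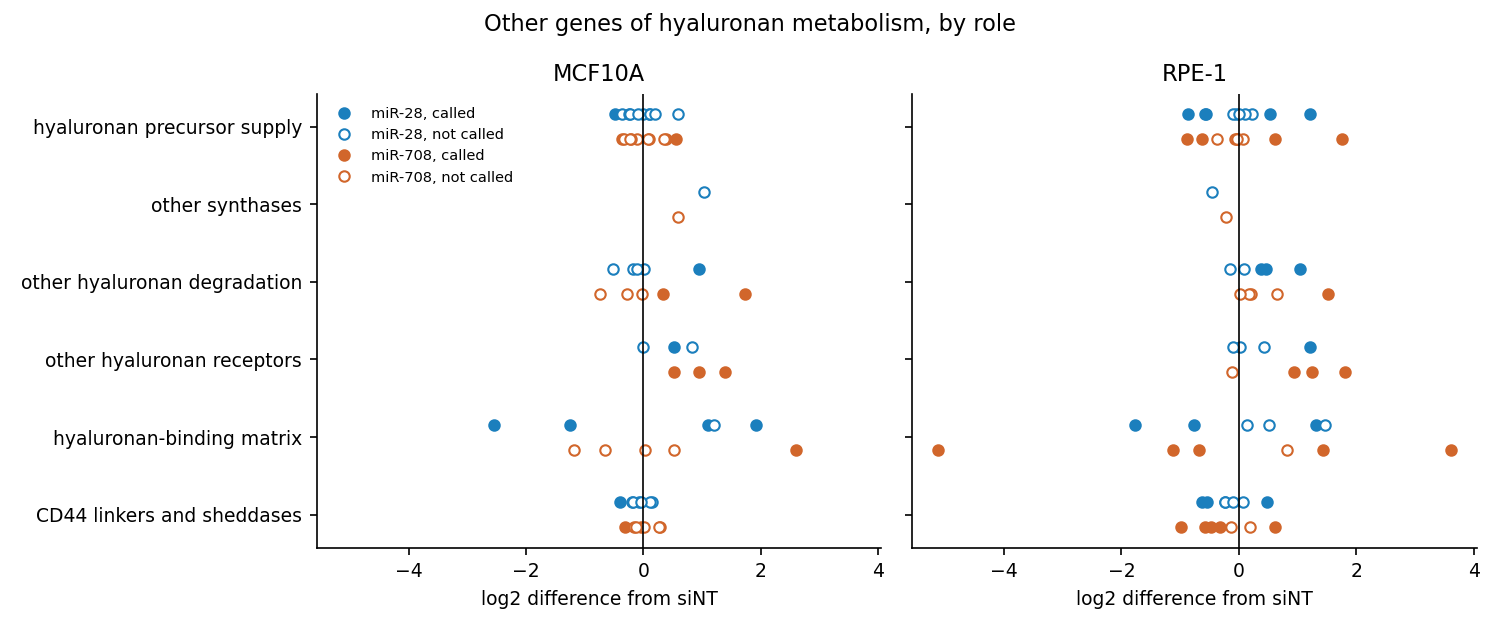
The log2 difference from siNT of every tested gene in the lists of other hyaluronan genes, by role, line and mimic; filled points were called in limma and open points were not. Points lie on both sides of 0 in the precursor, matrix and linker lists of RPE-1, and called receptors lie to the right.

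The genes whose pattern was most like that of CEMIP were ranked by the Euclidean distance between log2(value + 1) values over the 9 libraries of a line, after the siNT mean of each gene was subtracted. Among 11439 RPE-1 genes with a mean of at least 100, the 5 nearest were NACAD (distance 2.65), LRRC32 (3.62), EXTL1 (6.41), CRISPLD2 (6.52) and IMPDH1 (6.99). LRRC32, which holds latent TGF-beta at the cell surface, had means of 1375 with siNT, 112 with miR-28 and 7.65 with miR-708. CRISPLD2, a secreted protein gene, had means of 2607, 565 and 58.6. EXTL1, a glycosyltransferase of the heparan sulfate family, had 308, 35.2 and 5.63, and NACAD had 488, 22.0 and 2.01, so that both ended near the floor of 3 reads. IMPDH1, an enzyme of guanine nucleotide synthesis, had 1203, 59.9 and 49.8 and so differed little between the mimics, unlike CEMIP. In MCF10A, among 11259 genes, the 5 nearest were SLC31A1 (distance 1.17), MFSD3 (1.29), GJA3 (1.36), ATP6V1B1 (1.44) and LRP4 (1.45). SLC31A1, the high-affinity copper importer, had means of 2366, 772 and 422 there. The 9 points behind each distance share libraries and depth, and the RPE-1 pattern is the one CEMIP was chosen for, so these distances are descriptions. No gene was among the 5 nearest in both lines.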

How the data were processed

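The members and the lists of other hyaluronan genes were chosen with earlier results of these data known. The authors trimmed the reads, aligned them to hg38 with HISAT2 2.1.0, used the Partek E/M module to estimate counts for RefSeq transcripts, and deposited 1 table per line. The deposited signal is this estimated count over the size factor of its library, computed from medians of ratios. Their tables of ratios, log2 ratios and p-values from DESeq2 were not used. Depth and estimated reads were taken from the step between low values, of which 76.7% to 81.2% were within 0.01 reads of a whole multiple in a library, so a model of counts was not used. Genes that reached 10 in 3 or more of the 9 libraries of a line were fitted on log2(value + 1) with limma 3.58.1 (R 4.3.3), with 3 group means per line, a trend and Benjamini-Hochberg adjustment over all genes tested, and called at 0.05. Differences between lines used the Welch–Satterthwaite formula for degrees of freedom. Groups came from the labels of the samples, and the procedure was tested on simulated data. Seed matches were searched in GENCODE 44 MANE Select transcripts, and transcript lengths came from the same models. Promoters were not used here.

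Named genes were the members, list genes called in the same direction with both mimics with a mean of at least 100 (at most 3 per direction, list and line), the 5 genes most like CEMIP in each line, and RPS28. Of the genes this takes in, 1 is not reported here, and the counts over its list include it. Libraries of 1 replicate number were taken as paired where each correlation of their deviations across genes was over 0.1. These were 0.26, 0.18 and 0.11 between siNT and miR-28 and 0.30, 0.11 and 0.16 between siNT and miR-708 in MCF10A, and 0.28, 0.20 and 0.13 between the mimics in RPE-1, so the numbers pair these libraries, as a pattern in the data and not from the labels. The pattern is weak, since siNT replicate 8 and miR-28 replicate 9 of MCF10A, with unlike numbers, also had a correlation of 0.11. Alternatives were other pseudocounts (0.5 and 10), no filter, library size and upper quartile scaling, no trend, only the 2 groups compared, a replicate block, a 2-fold limit as well, and each library left out in turn. Tables were handled in pandas 2.3.3 with numpy 2.4.6 and scipy 1.17.1 (Python 3.11.15), and plots were drawn with matplotlib 3.10.9.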

Additional observations from a re-analysis of the deposited data

Results flagged for a closer look

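The tested difference of a response between the lines, RPE-1 minus MCF10A on the log2 scale, passed the threshold for these members and named genes (limma estimates, Benjamini-Hochberg adjusted p below 0.05). For HAS2 it was 2.08 with miR-28 and 2.81 with miR-708, and for CD44 it was 0.88 and 1.64. For HYAL2 and HYAL3 it was -0.55 and -1.09 with miR-708. Of the other hyaluronan genes, the difference was positive for UAP1 (0.75 with miR-28 and 0.53 with miR-708) and, with miR-708, AMDHD2 (1.97) and HMMR (1.30). It was negative for EZR (-0.77 and -0.86), UGP2 (-0.66 and -1.17) and, with miR-708, CEMIP2 (-1.52), MSN (-0.95) and UGDH (-0.52). RPS28 had -1.68 and -1.74. Of all 13339 genes tested in both lines, 23.4% passed with miR-28 and 39.8% with miR-708. The other hyaluronan genes were named because they were called with both mimics in a line. That choice favours a difference between lines, so their values here are descriptions. No explanation was tested for any of these differences, and the HYAL2 value lost its call in 7 of 12 leave-one-out fits.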

How the results depend on the processing

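Directions of called members held in all alternatives, and HAS2 and HAS3 in RPE-1 and CD44 in MCF10A kept their calls in all of them. With a 2-fold limit as well, called genes numbered 854, 1403 and 134 in MCF10A (miR-28, miR-708, and between mimics, where the main counts were 3347, 4835 and 228) and 1976, 3550 and 700 in RPE-1 (6798, 9024 and 3084). Between mimics, no trend gave 150 and a replicate block 643 genes in MCF10A, and library size scaling gave 4650 in RPE-1. Members called became 1 with no trend (miR-28 in MCF10A), 1 with the block (between mimics in MCF10A) and 2 with library size scaling or the block (between mimics in RPE-1). CEMIP with miR-28 in MCF10A passed with a pseudocount of 10 (-0.95), with only the 2 groups (-1.07) and with the replicate block (-1.07). Between mimics in MCF10A, CEMIP passed with the block (-1.45). There the correlations of 0.12, 0.02 and 0.18 did not all meet the limit set for pairing, which does not show that the libraries are unpaired. In RPE-1, CEMIP with miR-708 was -8.23 under library size scaling. HAS3 with miR-28 in MCF10A was not called with no trend (0.78). HYAL3 with miR-708 was called under library size (0.74) and upper quartile scaling (0.64) and with no trend (0.59) in MCF10A, and with no trend in RPE-1 (-0.50). HYAL2 with miR-708 lost its call under library size scaling in RPE-1 (-0.10) and between lines (-0.37). HAS2 between mimics in RPE-1 was called under library size scaling (0.80) and with the block (0.56). Between lines with miR-28, HAS3 passed with the block (0.87) and HYAL3 with no trend (-0.72). Uncalled values changed sign for HYAL3 with miR-28 in MCF10A at a pseudocount of 10 (-0.0013) and, under library size scaling, between mimics in RPE-1 for HAS3 (0.046) and HYAL2 (0.018). The causes were not tested.

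With 1 library left out, genes called ranged over 1949–3071, 3175–5483 and 116–383 in MCF10A and 1509–4083 between mimics in RPE-1, and members called over 1–2 (miR-28) and 0–1 (between mimics) in MCF10A and 2–5 (miR-708) and 0–2 (between mimics) in RPE-1. Gene counts moved by over 1.5 times without siNT or miR-28 replicate 8 or 9 (miR-28 in MCF10A), miR-708 replicate 9 (miR-708 in MCF10A), miR-28 replicate 8 or 9 or any miR-708 library (between mimics in MCF10A), and miR-28 replicate 3 or miR-708 replicate 1 or 3 (between mimics in RPE-1). CEMIP between mimics in MCF10A ranged from -1.86 to -1.15. HAS2 in MCF10A ranged from -0.051 to 0.66, from -0.21 to 0.50 and, between mimics, from -0.38 to 0.040, HYAL3 with miR-28 from -0.16 to 0.090 and HYAL2 between mimics from -0.026 to 0.078. Between mimics in RPE-1, HAS3 ranged from -0.50 to 0.0038. Where a call was lost or gained, the ranges were 0.54 to 1.05 for HAS3 with miR-28 in MCF10A and, in RPE-1, -0.87 to -0.58 for HYAL3 with miR-28, -0.50 to -0.32 for HYAL2, -0.65 to -0.36 for HYAL3 and 0.27 to 0.39 for CD44 with miR-708, and 0.36 to 0.74 for HAS2 and 0.40 to 0.58 for CD44 between mimics. Between lines they were 0.61 to 1.18 for HAS3 and -0.87 to -0.56 for HYAL3 with miR-28 and -0.63 to -0.45 for HYAL2 with miR-708. A replicate block changed no other call of a member. Depth limits HAS2 in MCF10A, at 6 to 23 reads.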
